A study of Homo sapiens with 19 samples.

Results

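The RNA of MDA-MB-231 cells kept as floating spheres for 5 d was set against that of adherent cells of the same line. MDA-MB-231 is an established human breast cancer line of the triple-negative, mesenchymal kind. The comparison was chosen by culture label and holds 4 of the 19 libraries of the series, 2 of adherent cells and 2 of 5 d spheres. Of 19021 genes listed in the deposited culture table, 13789 had a mean of at least 10 normalized counts over its 6 libraries and were tested. Adherent cells grew on plastic in DMEM with 10% FCS, Pen-Strep and glutamine. Spheres floated in non-adherent plates, and their DMEM/F12 held B27 with 20 ng/ml each of EGF and FGF. The third culture group, 16 h spheres (n = 2) in the same medium, entered the filter and, for its share of the error estimate, the fit. Its levels are otherwise cited for timing alone. A gene low in both compared groups could thus be tested through its 16 h level. Medium, serum, added factors, attachment and time away from the dish all differ between the compared groups, and their effects cannot be told apart. No label of these groups names a transgene or a drug, and all are of the same line.

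Sphere culture, also called mammosphere culture for breast cells, asks which cells live and divide without anchorage. Cells that detach lose the signal that integrins pass on from matrix, spread less and stop feeding the mechanical input that keeps the co-activators YAP and TAZ in the nucleus. Packed into aggregates they meet less oxygen and fewer nutrients. Serum, with its lipids, hormones and attachment factors, gives way to B27, EGF and FGF. The assay is widely used to enrich cells with tumour-initiating traits. RNA in bulk cannot tell fewer cells of a kind from less RNA per cell, which holds for every value below.

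The labelled line was checked against markers of its type. VIM, the mesenchymal filament protein, was abundant in adherent cells (32153 and 31547 normalized counts) and at 5 d (33890.4 and 34383). The hyaluronan receptor CD44, the repressor ZEB1, MSN and CAV1 were also well above the filter, whereas the matrix protein SPARC, listed as a marker, was below the filter, at 5.28 and 1.22 in adherent cells and 5.18 and 6.16 at 5 d. AXL, listed as present too, was at 8898 and 8989 in adherent cells and at 2872 and 2890 at 5 d. The oestrogen receptor ESR1, the epithelial cadherin CDH1, the splicing factor ESRP1 and the basal keratin KRT14 were below the filter. ERBB2, GATA3 and EPCAM, listed as absent or low, were above the filter. Their summed level was 957.6 and 881.6 in adherent cells and 918.2 and 925.9 at 5 d. None of them passed the test between groups. Of 13 markers of blood, vessel, fibroblast, fat, muscle and nerve cells, 8 were tested. Their summed level was 178 and 197 in adherent cells and 226 and 209.5 in 5 d spheres. COL1A1 and DCN rose, LUM fell, the leukocyte marker PTPRC and the endothelial VWF were below the filter, and PDGFRA was at 0 and 0.609 in adherent cells and at 0 in both 5 d libraries.

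Depth was 11980810 and 14781941 recovered reads in the adherent libraries and 8981467 and 6104222 in the 5 d libraries. The chi-square between the 2 libraries of a group averaged 2.03 to 2.08 per gene, where counting error alone gives 1. The labels do not say whether the libraries came from separate cultures, so p-values measure the spread between these libraries, which may be technical. A gene is said to have risen or fallen where limma gave an adjusted p under 0.05. That was met by 3624 genes that were higher (26.3%) and 3990 that were lower (28.9%). Libraries of the compared groups did not overlap for 77.7% of tested genes, a share that includes separation by chance at n = 2 per group. Counts of rises and falls in the gene lists below are to be set beside the shares of 26.3% and 28.9%. With a 2-fold change required as well, 1059 genes were called and at least 2-fold higher (7.68%) and 959 at least 2-fold lower (6.95%). At least 8-fold changes numbered 93 up and 53 down. The middle 50% of genes lay between log2 fold changes of -0.43 and 0.40, with a median of -0.017.

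**Figure D1:**
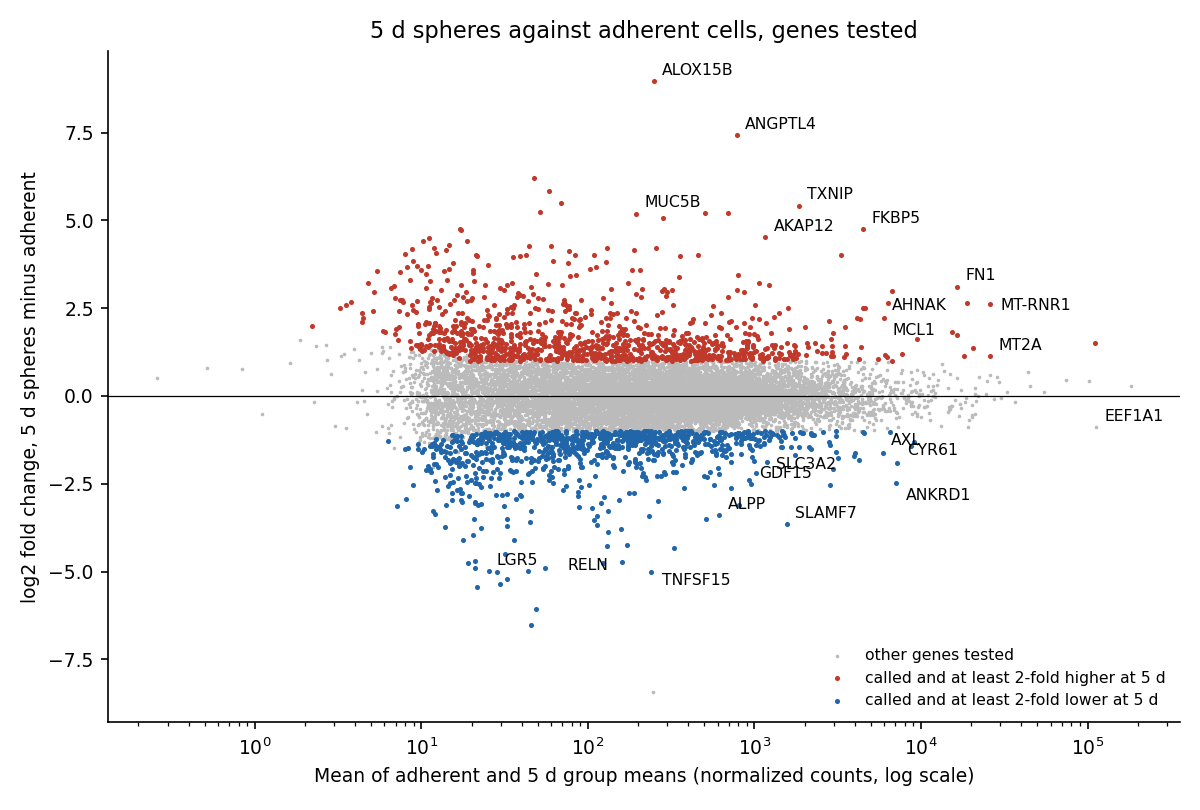
Log2 fold change of 5 d spheres against adherent cells (y axis) for the 13789 genes tested, against the mean of both group means in normalized counts (x axis, log scale). Red points are the 1059 genes called and at least 2-fold higher, blue points the 959 at least 2-fold lower. ALOX15B, with 0 reads in adherent cells, is drawn at its fitted value, which is no bound.

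RNA classes and transcript length moved with the groups. Mitochondrial transcripts took 6.83% and 6.89% of reads in adherent cells and 9.65% and 9.74% at 5 d. Members of the RNA polymerase III list, which lack poly(A) tails, took 0.00071% and 0.00074% against 0.0227% and 0.0234%, and all 5 tested rose at least 4-fold. Among replication-dependent histones, whose mRNAs mostly lack poly(A) tails too, 7 of 8 rose and 4 of them at least 2-fold, while replication genes fell. Of protein-coding genes, the 10% with the longest transcripts, from 7784 bases up, had 52.6% called higher and 15.3% called lower, and those of 1674 to 2202 bases 17.6% and 41.0%. By GC content, the richest 10% had 17.8% higher and 42.0% lower. With the length and GC trends taken out of each library, 953 genes were called and at least 2-fold higher and 844 lower. That fit held the 13485 tested genes with a known transcript length. Whether differences in RNA quality or library preparation moved any result was not tested, and list medians below are log2 fold changes, followed by the median with these trends taken out (trend-free).

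**Figure D2:**
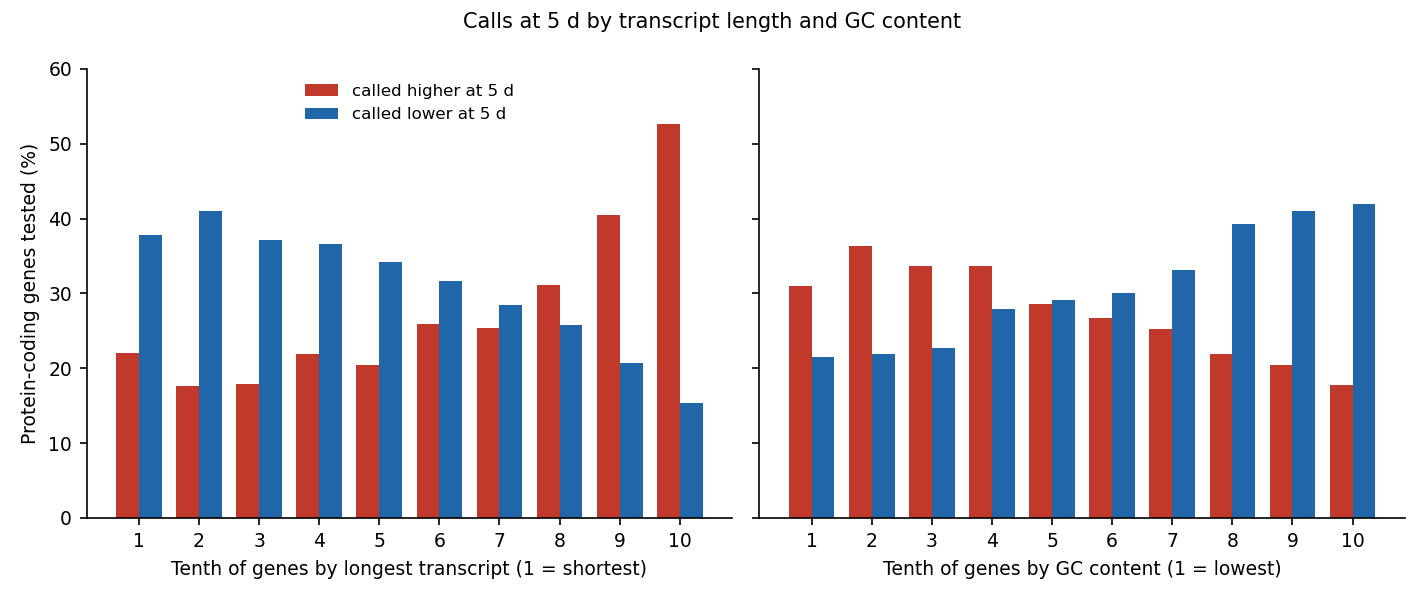
Share of protein-coding genes tested that were called higher (red) or lower (blue) at 5 d, in % (y axis), in 10 equal classes by longest transcript (left) and by GC content (right). Higher calls are 22% in the shortest, 17.6% in the next and 52.6% in the longest class, and lower calls 21.5% in the lowest and 42.0% in the highest GC class.

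Among the 25 largest rises, ALOX15B, a lipoxygenase that oxidises arachidonic acid, had 0 reads in both adherent libraries and 504 and 491 normalized counts at 5 d, at least 243-fold higher. CSF3, the granulocyte growth factor, went from 0.755 and 3.04 to 112 and 89.4 (log2 5.24 ± 0.32). AKAP12, a scaffold for protein kinases A and C, went from 94.3 and 96.2 to 2245 and 2209 (4.53 ± 0.06). Genes were ranked among those whose adherent and 5 d libraries do not overlap, so that separation is no finding. RGS2, which switches off G protein signals, rose by 4.21 ± 0.13, the receptor for chemerin and resolvins CMKLR1 by 4.22 ± 0.19, and SCNN1A, a chain of the epithelial sodium channel, by 3.99 ± 0.13. ACOX2, a peroxisomal oxidase of branched fatty acids and bile acid precursors, rose by 4.12 ± 0.32, and DMBT1, a secreted scavenger receptor, by 4.01 ± 0.22. PRICKLE2, of the planar polarity pathway, rose by 3.6 ± 0.16, and NEBL, an actin-binding protein of the nebulin family, by 4.14 ± 0.19. SAA1 rose by 3.62 ± 0.15, from 15.1 and 14 to 217 and 166, although SAA2 is nearly identical and the split of reads between them is uncertain. Less often discussed members of the 25 largest were PAPLN, a proteoglycan-like matrix protein (4.28 ± 0.31), CYTH4 (4.02 ± 0.25), the zinc finger gene ZNF460 (3.86 ± 0.34), NBEAL1 (3.81 ± 0.28), CRYBG3 (3.66 for 1 of 2 entries with that symbol) and SPAG4 (3.45 ± 0.24). With 1 library left out the log2 change ranged from 4.64 to 5.85 for CSF3, 3.53 to 4.71 for ACOX2, 3.16 to 4.46 for NBEAL1 and 3.24 to 4.47 for ZNF460, the ends being the values without adherent replicate 1 or 2.

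Most of these rises had been higher still at 16 h. Tested against 16 h spheres, where 22.8% of all genes were called higher at 5 d and 25.5% lower, 14 of the 25 largest rises stood lower at 5 d, 4 stood higher and 7 were not called. ANGPTL4 had come down from 5503 and 5829 to 1507 and 1601 (5 d against 16 h, log2 -1.87 ± 0.10). NOX5, a calcium-activated NADPH oxidase, had gone up from 493 and 513 to 954 and 1008 (0.96 ± 0.13). The 4 that were higher at 5 d than at 16 h were NOX5, ACOX2, SCNN1A and CRYBG3. ID1 stood at 325 and 419 and then 366 and 388, with no call between the times.

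Among the 25 largest falls, TNFSF15, a TNF family cytokine that acts against vessel growth, went from 460.3 and 472 to 14.5 and 12.3 normalized counts (log2 -5.02 ± 0.28). SLAMF7, a receptor best known from lymphocytes and plasma cells, went from 3000.3 and 2812 to 231 and 228 (-3.66 ± 0.13). NOV, a matricellular protein of the CCN family, went from 1455 and 1457 to 174 and 165 (-3.1 ± 0.10). The 5 d libraries of these 3 genes lay at least 8-fold under the adherent ones. CD177, a surface protein of neutrophils, fell (-4.91 ± 0.58). FST, the secreted activin antagonist, fell from 921 and 968 to 80.7 and 84.7 (-3.5 ± 0.14), and EDN1, the vasoconstrictor endothelin, from 355 and 309.9 to 52.8 and 43.1 (-2.77 ± 0.19). RELN (-4.72 ± 0.43), MYCT1 (-3.88 ± 0.31), TSPAN8, a tetraspanin (-3.05 ± 0.40), ST6GALNAC5, a sialyltransferase of gangliosides (-3.16 ± 0.35), and GPRC5B (-3.0 ± 0.20) fell too. SERTAD4 (-4.76 ± 0.51) and SERTAD4-AS1 (-2.86 ± 0.49) are a pair of overlapping genes on opposite strands, and the kit does not mark the strand. C10orf54, an immune checkpoint protein also named VISTA, fell (-2.96 ± 0.26), and so did HKDC1, a hexokinase-like enzyme (-2.69 ± 0.38). Without 5 d replicate 1 or 2 SERTAD4 was at -3.99 or -5.53 and TSPAN8 at -3.69 or -2.4.

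Against 16 h spheres 13 of the 25 largest falls stood higher at 5 d, 4 lower and 8 were not called. ALPP, placental alkaline phosphatase, had come back from 11.7 and 11 at 16 h to 95.2 and 117 (3.11 ± 0.19) against 1131 and 1113 in adherent cells. TNFSF15, EDN1, FST and NOV were the 4 that went on falling between 16 h and 5 d. Placental genes as a list had 1 rise and 6 falls among 9 tested (median -3.4, trend-free -3.16). PSG1 had 0 reads in both 5 d libraries and 98.9 and 84 in adherent cells, at least 23.7-fold lower. PSG9 (-4.34 ± 0.33), PSG5 (-4.26 ± 0.38) and PSG4 (-3.79 ± 0.38) fell as well, with values that are uncertain because the PSG genes are nearly identical. PSG4 was at -3.01 without 5 d replicate 1 and -4.57 without replicate 2. KISS1, the precursor of kisspeptin, stood at 980.2 and 979.6 in adherent cells, 6.4 and 17.1 at 16 h and 173 and 165 at 5 d. PAPPA, a protease that frees IGF from its binding proteins, was the one riser (1.74 ± 0.22).

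**Figure D3:**
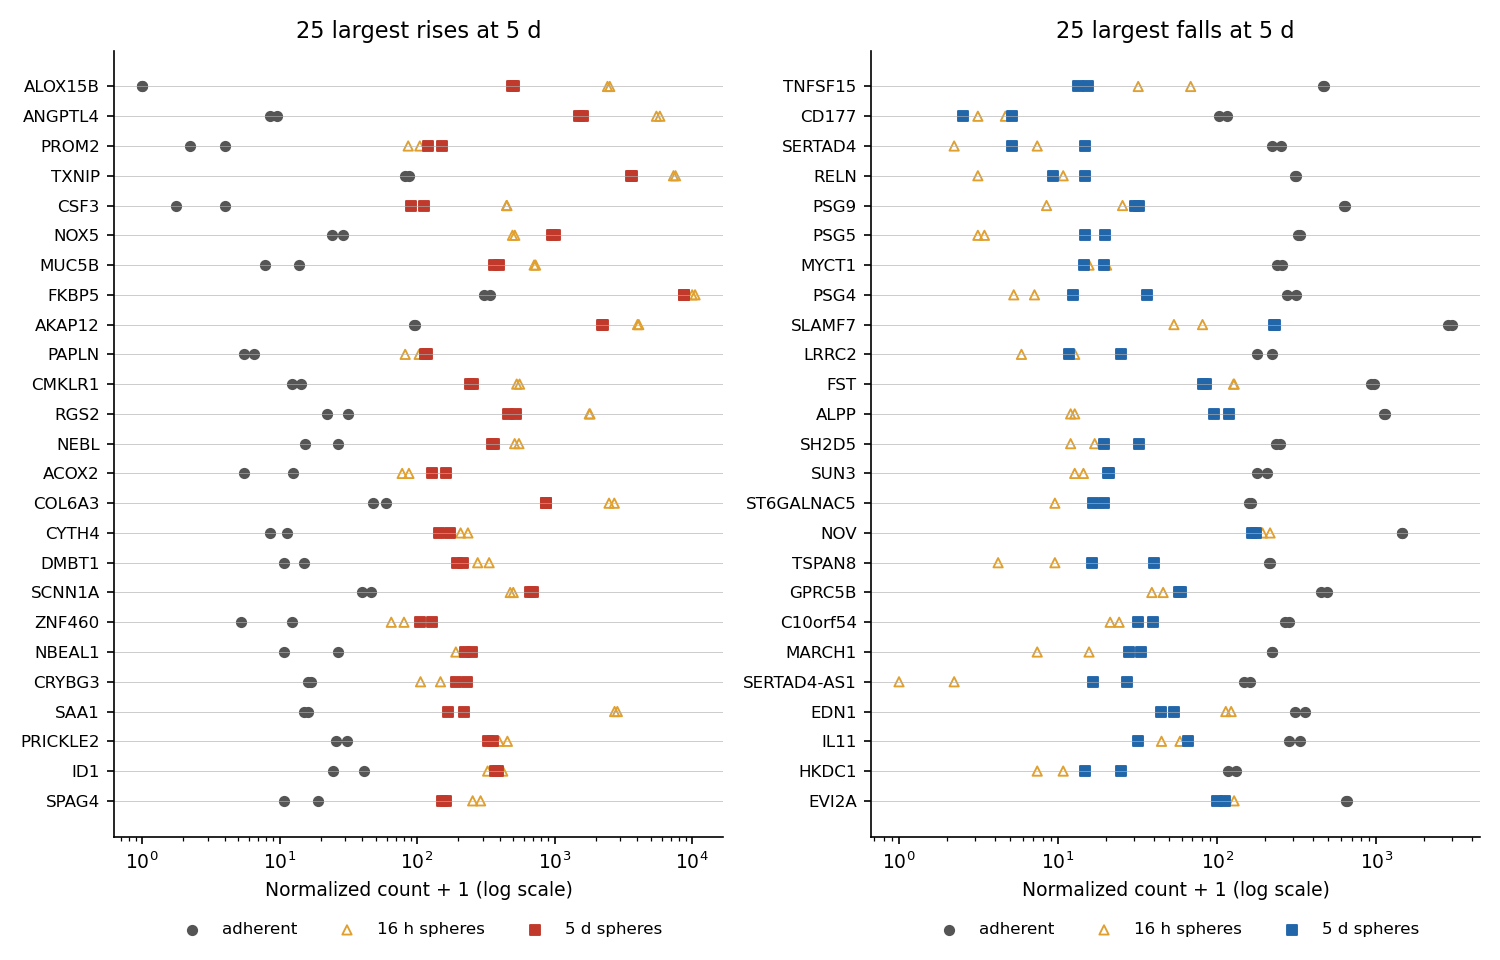
Normalized counts plus 1 (x axis, log scale) of the 25 genes with the largest rises (left) and falls (right) at 5 d, with 1 symbol per library: circles adherent, open triangles 16 h spheres, squares 5 d spheres. Genes whose adherent and 5 d libraries overlap were not eligible. ALPP moves back towards the adherent level between 16 h and 5 d, while TNFSF15 moves further away.

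Genes were also ranked by gain in normalized counts rather than by ratio. The mitochondrial ribosomal RNA genes MT-RNR2 (57699 and 57759 to 163437 and 164118 normalized counts, log2 1.5 ± 0.0072) and MT-RNR1 (2.62 ± 0.01) led. They rose more than the mitochondrial mRNAs, of which MT-ND6 had the largest rise (0.72 ± 0.02) and MT-ND2 was slightly lower (-0.087 ± 0.01). With quantile normalization the log2 change of MT-CO3 was -0.000 and that of MT-ATP6 -0.063, so small differences of these mRNAs have no stable sign. AHNAK, a giant scaffold protein beneath the membrane, went from 5104 and 5316 to 32186 and 32503 (2.63 ± 0.02), and PLEC, the linker plectin, from 7554 and 7658 to 25188 and 25051 (1.72 ± 0.02). Both are among the longest transcripts, the class with the most rises. FN1, LDHA, MT2A, ERRFI1, IGFBP4 and GAPDH completed the gains outside the mitochondrial genome.

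Among the 15 largest losses in normalized counts, EEF1A1, the elongation factor that brings tRNA to the ribosome, went from 146962 and 146731 to 78686 and 78946 (log2 -0.90 ± 0.0072), and TUBB, a tubulin, from 24816 and 24751 to 13414 and 13298 (-0.89 ± 0.02). TMSB4X, which holds actin monomers, (-0.60 ± 0.02) and HMGA1, a chromatin architectural protein (-0.50 ± 0.02), fell. The metalloproteinase inhibitors TIMP3 (-1.41 ± 0.03) and TIMP2 (-1.31 ± 0.03), the amyloid precursor APP (-0.84 ± 0.02), the lysosomal PSAP (-0.68 ± 0.02) and the ferritin chain FTL (-0.57 ± 0.02) were further losses.

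Of 12 genes of glucose sensing and transport 6 rose and 4 fell (list median 0.59, trend-free 0.45). TXNIP, which blocks glucose uptake and is switched on by the sugar-sensing factors MLXIP and MLXIPL, rose by 5.42 ± 0.06 on the log2 scale. Its relative ARRDC4 went from 3.02 and 7.91 to 46.6 and 37 normalized counts (2.83 ± 0.44), MLXIPL from 8.3 and 8.52 to 35.2 and 27.7 (1.78 ± 0.50) and MLXIP from 810.4 and 773 to 1146 and 1311 (0.63 ± 0.06). The partner MLX was slightly lower (-0.30 ± 0.08), and not called without 5 d replicate 2 (-0.16) or with length and GC trends removed (-0.15). Among transporters, SLC2A1 (-0.39 ± 0.03) and SLC2A6 (-1.01 ± 0.17) fell and SLC2A3, the high-affinity neuronal form, rose (0.59 ± 0.06). SLC2A1 had been at 9248 and 8899 at 16 h, above the adherent 4662 and 4782, before reaching 3609 and 3576 at 5 d.

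Windows of RefSeq promoter sequence (GRCh38.p14, 300 bases each) were searched on both strands for short cores, to show which sequences lie before genes that moved. The E-box core CACGTG, bound by sugar-sensing and clock factors, was in 3 of 12 matched glucose genes (25%) and in 7.26% of 35116 windows. These were ARRDC4, MLX and SLC2A13, of which SLC2A13 was not called without adherent replicate 2 (-0.98), and no match was found in the TXNIP window. The core TGATGNAA, known from amino acid response elements, was in 10 of 46 genes of amino acid supply and stress (21.7%) and in 3.62% of all windows. Of those 10, 9 fell at 5 d and ATF3 was not called, where 40 of the 55 tested genes of these lists fell. The core ACGTG, which lies within hypoxia response elements and also within CACGTG, was in 20 of 44 glycolysis and hypoxia genes (45.5%) and in 21.4% of all windows. Of those 20, 18 rose, where 39 of the 51 tested genes of these lists rose. The counts over 55 and 51 tested genes include the genes with the core and genes that had no window. A sterol core, TCACNCCAC, was in 1 of 18 cholesterol genes, SREBF2. Each list gene was read in 1 window, whereas the 35116 windows were not limited to tested genes, so the shares come from unlike sets. The first 250 bases of the windows of 5 genes with matches follow, ending at the start site, with the matched letters in capitals. The amino acid response and hypoxia cores were applied to stress, transporter, glycolysis and hypoxia genes after their values were known.
ARRDC4 (chr15:97960453-97960702, plus strand, CACGTG): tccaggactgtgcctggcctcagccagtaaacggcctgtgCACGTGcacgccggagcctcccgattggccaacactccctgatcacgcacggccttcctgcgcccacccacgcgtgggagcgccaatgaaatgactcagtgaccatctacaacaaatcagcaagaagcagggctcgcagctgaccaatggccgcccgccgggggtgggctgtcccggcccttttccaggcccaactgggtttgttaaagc
CHAC1 (chr15:40953221-40953470, plus strand, TGATGNAA): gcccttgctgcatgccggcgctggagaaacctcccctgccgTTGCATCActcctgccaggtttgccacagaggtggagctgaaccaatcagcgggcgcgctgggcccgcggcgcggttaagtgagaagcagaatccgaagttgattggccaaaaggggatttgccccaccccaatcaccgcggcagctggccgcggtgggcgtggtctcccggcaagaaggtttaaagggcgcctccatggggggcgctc
ASNS (chr7:97872409-97872658, minus strand, TGATGNAA): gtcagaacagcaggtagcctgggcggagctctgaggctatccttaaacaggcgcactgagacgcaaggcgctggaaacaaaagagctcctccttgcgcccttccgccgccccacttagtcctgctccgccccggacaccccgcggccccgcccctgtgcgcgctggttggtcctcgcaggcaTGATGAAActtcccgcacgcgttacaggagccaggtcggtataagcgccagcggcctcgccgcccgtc
LDHA (chr11:18394313-18394562, plus strand, ACGTG): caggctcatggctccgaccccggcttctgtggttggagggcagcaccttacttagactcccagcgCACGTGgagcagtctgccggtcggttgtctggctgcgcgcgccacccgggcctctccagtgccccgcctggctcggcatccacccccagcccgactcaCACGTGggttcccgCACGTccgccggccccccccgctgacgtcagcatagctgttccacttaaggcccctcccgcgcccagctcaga
CA9 (chr9:35673678-35673927, plus strand, ACGTG): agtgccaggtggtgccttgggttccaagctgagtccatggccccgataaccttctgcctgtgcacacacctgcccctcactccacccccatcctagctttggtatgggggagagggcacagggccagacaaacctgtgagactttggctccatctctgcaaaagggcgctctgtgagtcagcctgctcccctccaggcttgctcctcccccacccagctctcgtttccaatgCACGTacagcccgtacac

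Most hypoxia genes were higher. Outside glycolysis 22 of 25 rose and 2 fell, 10 of them at least 2-fold higher (median 0.84, trend-free 0.90). CA9, a carbonic anhydrase switched on by low oxygen, went from 4.53 and 3.04 to 81.8 and 67.8 normalized counts (log2 4.0 ± 0.26), and had been at 553 and 617 at 16 h. CA12, its membrane-bound relative, rose by 1.92 ± 0.11, EGLN3, an oxygen sensor, by 2.31 ± 0.10, NDRG1 by 1.62 ± 0.02, BNIP3, a receptor for mitophagy, by 1.43 ± 0.04, and the angiogenic factor VEGFA by 0.84 ± 0.03. The collagen hydroxylases P4HA1 (1.23 ± 0.05) and P4HA2 (1.03 ± 0.07) and the cross-linker LOX (1.28 ± 0.03) rose too. TMEM45A (-0.56 ± 0.11) and JMJD6 (-0.24 ± 0.10) fell, JMJD6 without a call by edgeR (-0.23) or when adherent replicate 1 (-0.27) or 2 (-0.21) or 5 d replicate 2 (-0.21) was left out. In glycolysis 17 of 26 rose and 3 fell (median 0.38, trend-free 0.50). LDHA went from 11410.3 and 11384 to 29574 and 29632. Larger ratios were those of PDK4 (2.51 ± 0.28) and PDK1 (1.3 ± 0.14), kinases that keep pyruvate from the mitochondria, of PFKFB4 (1.6 ± 0.10) and of ALDOC (1.55 ± 0.11). The lactate exporter SLC16A3 rose by 0.72 ± 0.03. PFKFB2 (-1.1 ± 0.14), ENO1 (-0.17 ± 0.01) and LDHB (-0.14 ± 0.03) fell, the last pair without a call once length and GC trends were removed (-0.008 and -0.032), and HK1 and HK2, the hexokinases, were not called (0.062 and 0.016).

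In the nuclear-encoded respiratory chain 17 of 42 genes rose and 9 fell, none of them 2-fold (list median 0.083, trend-free 0.13). NDUFB3 (0.65 ± 0.13), UQCRC2 (0.49 ± 0.07) and NDUFB5 (0.47 ± 0.09) were among the risers, NDUFS7 (-0.93 ± 0.16), SDHD (-0.64 ± 0.10) and the electron carrier CYCS (-0.50 ± 0.07) among those that fell.

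Of the PPAR, oxidation and droplet list 12 of 20 rose and 3 fell (list median 0.38, trend-free 0.42). ACADVL rose by 0.78 ± 0.06 and LPIN1 by 0.70 ± 0.06, while UCP2 fell (-0.57 ± 0.15; not called with length and GC trends removed, -0.31). Of fatty acid synthesis and desaturation 11 of 18 rose and 3 fell (median 0.40, trend-free 0.24). ACSL1, which charges long-chain fatty acids with coenzyme A, went from 687 and 676 to 2551 and 2534 normalized counts (1.9 ± 0.05). ACSS2, which makes acetyl-CoA from acetate, rose by 0.95 ± 0.05 and ACACA, the carboxylase that commits it to fat, by 0.89 ± 0.06. The falls were FADS3 (-0.92 ± 0.08), ELOVL1 (-0.43 ± 0.06) and MID1IP1 (-0.43 ± 0.06).

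Cholesterol genes moved both ways. Of 24 tested 12 rose and 6 fell, with none changed 2-fold (median 0.19, trend-free 0.28). The early enzyme HMGCS1 rose (0.39 ± 0.06). The enzymes of the last steps, DHCR7 (-0.41 ± 0.04) and SC5D (-0.46 ± 0.08), fell. HMGCS1 had been at 588 and 556 at 16 h, under the adherent 1702 and 1705, and reached 2238 and 2238 at 5 d (1.97 ± 0.06 against 16 h). The sign of FDPS (-0.16 ± 0.04) turned to 0.079 with length and GC trends removed, and it was not called without adherent replicate 1 (-0.14). The sterol exporter ABCA1 (1.43 ± 0.18) and the oxysterol receptor NR1H3 (1.28 ± 0.19) rose and its relative NR1H2 fell (-0.57 ± 0.09), in a list with 4 rises and 1 fall of 7 (list median 0.46, trend-free 0.53).

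Most genes of the lists on amino acid supply fell. Cells short of amino acids or with a stressed ER make the factor ATF4, which turns on transporters, synthetic enzymes and tRNA synthetases. Of 15 genes of the ATF4 list 3 rose and 10 fell, 7 at least 2-fold (median -0.79, trend-free -0.81). GDF15, a stress cytokine that acts on appetite, went from 1631 and 1589 to 316 and 251 normalized counts (-2.51 ± 0.10). CHAC1, which breaks down glutathione, went from 1704 and 1644 to 341 and 396 (-2.19 ± 0.09), and NUPR1 from 878 and 841 to 184 and 162 (-2.31 ± 0.11). The pseudokinase TRIB3 (-1.07 ± 0.07), the death-linked factor DDIT3 (-1.04 ± 0.12), the phosphatase subunit PPP1R15A (-1.59 ± 0.04) and the translation repressor EIF4EBP1 (-1.06 ± 0.06) fell as well. ATF4 itself was hardly lower (-0.16 ± 0.04) and turned to 0.089 with length and GC trends removed. The risers were DDIT4, a brake on mTORC1 (2.19 ± 0.03), VLDLR (0.96 ± 0.09) and CEBPB (0.89 ± 0.05).

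Of 19 amino acid transporters 15 fell and 2 rose (median -0.54, trend-free -0.56). SLC3A2, the heavy chain shared by several exchangers, went from 6651 and 6594 normalized counts to 1800.2 and 1910.3 (-1.84 ± 0.04). Its light chains SLC7A5, for large neutral amino acids (-1.02 ± 0.03), and SLC7A11, for cystine (-1.22 ± 0.08), fell too, as did the neutral exchangers SLC1A4 (-1.51 ± 0.14) and SLC1A5 (-0.80 ± 0.04). Those that rose were SLC7A2, for cationic amino acids, from 202 and 178 to 570.4 and 589 (1.61 ± 0.10), and SLC43A2, for neutral ones, from 10.6 and 6.7 to 63.1 and 69.3 (2.83 ± 0.33).

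In serine, one-carbon and amino acid synthesis 15 of 21 fell and 2 rose (median -0.41, trend-free -0.47). PHGDH, the entry enzyme of serine synthesis, went from 1035 and 917 to 309.5 and 296 (-1.68 ± 0.10), PSAT1 from 3482 and 3392 to 1659 and 1727 (-1.02 ± 0.05) and SHMT2, which feeds one-carbon units in mitochondria, from 4362 and 4131 to 1959.6 and 1892 (-1.14 ± 0.04). PSPH, the last enzyme of serine synthesis, was not called (0.056). ASNS (-0.71 ± 0.07), PYCR1 (-0.97 ± 0.07) and CTH (-0.81 ± 0.10) fell, and GLUL, which makes glutamine, rose from 2229 and 2163 to 4038 and 4139.5 (0.90 ± 0.03). Cytosolic tRNA synthetases fell in 13 of 20 and rose in 4, with IARS (-0.87 ± 0.04) and WARS (-0.79 ± 0.04) lowest and RARS (0.41 ± 0.06) and EPRS (0.40 ± 0.04) highest (list median -0.24, trend-free -0.16).

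**Figure D4:**
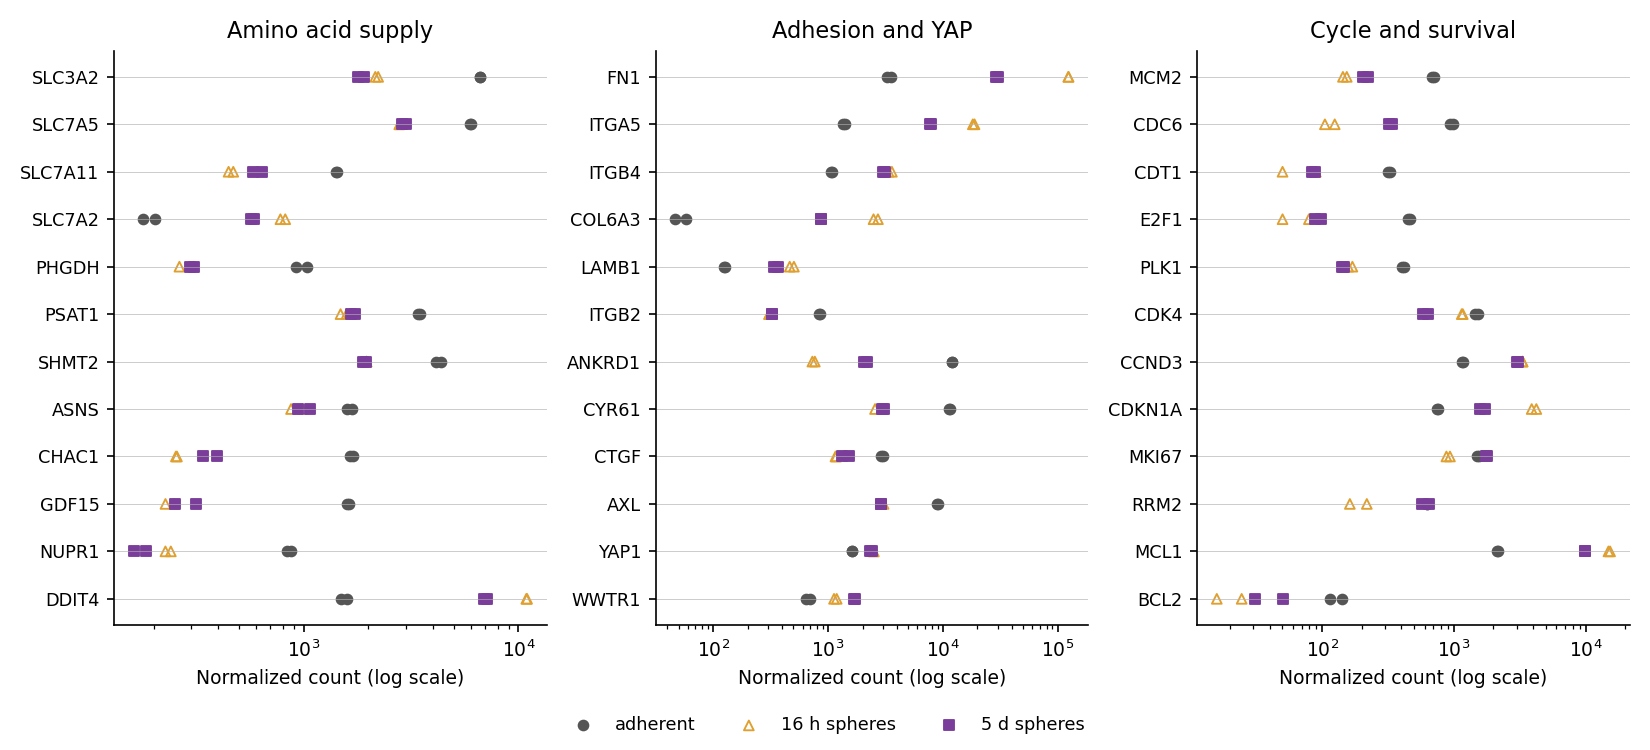
Normalized counts (x axis, log scale) of 36 genes of amino acid supply, adhesion and YAP signalling, and the cell cycle and survival, with 1 symbol per library: circles adherent, open triangles 16 h spheres, squares 5 d spheres. SLC3A2, ANKRD1 and MCM2 lie lower in spheres at both times, and DDIT4, FN1 and MCL1 higher. RRM2 was low at 16 h and back at the adherent level at 5 d.

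ER chaperones and folding enzymes fell in 16 of 20 genes and rose in 2 (median -0.38, trend-free -0.32). SDF2L1 (-1.52 ± 0.26) and DNAJB9 (-0.96 ± 0.10) fell most, CALR, a lectin chaperone, went from 24137 and 23985 to 14846 and 15116 (-0.68 ± 0.02), and HSPA5, the main chaperone of the ER, from 16459 and 16728 to 13341 and 13391 (-0.31 ± 0.02). Cytosolic heat shock genes were mixed, 6 up and 9 down of 20 (list median -0.038, trend-free -0.048). HSPH1, a nucleotide exchange factor for HSP70, fell (-1.76 ± 0.04), while BAG3 (0.78 ± 0.05) and the small heat shock protein HSPB1 (0.62 ± 0.06) rose.

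NRF2 targets gave 12 falls and 5 rises of 22 (list median -0.16, trend-free -0.15). HMOX1, which opens haem (-1.0 ± 0.17), TXNRD1, the thioredoxin reductase (-0.67 ± 0.03), and GCLM (-0.70 ± 0.16) fell, and GSR (0.74 ± 0.09) and the exporter ABCC3 (1.91 ± 0.16) rose. Among metallothioneins, which bind zinc and copper, and zinc genes, 6 of 9 rose and 2 fell (list median 0.57, trend-free 0.55). MT2A went from 16076 and 16161 to 32704 and 38548 and MT1X from 454 and 492 to 2674 and 2725 (2.51 ± 0.04). MT1G went the other way, from 27.9 and 24.4 in adherent cells through 82.1 and 104 at 16 h to 3 reads over both 5 d libraries, an adherent level 16.8 times that of 5 d (exact Poisson 95% interval 5.76 to 81.6). Short near-identical metallothionein genes make the single values uncertain.

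DNA replication genes were lower almost throughout. Of 39 tested 36 fell, 21 at least 2-fold, and 0 rose (median -1.05, trend-free -0.98). CDT1, which loads the helicase on origins, went from 317 and 328 to 88 and 83.2 normalized counts (-1.9 ± 0.21), and GINS3, a part of the active helicase, from 175 and 219.8 to 59 and 57 (-1.74 ± 0.23). PRIM1, the primase (-1.6 ± 0.35), FEN1, the flap nuclease (-1.55 ± 0.09), and UHRF1, which guides maintenance methylation (-1.53 ± 0.15), followed. RRM2, which supplies deoxynucleotides, was not called (-0.045). RRM2 stood at 626 and 627 in adherent cells, 219 and 162 at 16 h and 570.4 and 647 at 5 d, and rose between the sphere times by 1.68 ± 0.11. In the mitosis list 32 of 36 fell, 12 at least 2-fold, and 1 rose (median -0.81, trend-free -0.83). CENPA, the centromeric histone (-1.66 ± 0.32), the kinases AURKB (-1.62 ± 0.18) and PLK1 (-1.5 ± 0.14) and the survivin gene BIRC5 (-1.43 ± 0.13) fell. MKI67, the proliferation antigen, was at 1508 and 1550.1 and 1779 and 1761 (0.21 ± 0.06), and its sign turned to -0.27 with length and GC trends removed.

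Regulators of G1 gave 8 rises and 9 falls of 26 (list median -0.18, trend-free -0.07), where 26.3% of all tested genes rose and 28.9% fell. E2F1, the factor that drives replication genes, went from 469 and 449 to 98.3 and 87.8 (-2.29 ± 0.19), and CDK4 from 1519 and 1459 to 585 and 641 (-1.28 ± 0.06). The D cyclins parted: CCND3 went from 1157 and 1176 to 3063 and 3029 (1.38 ± 0.04) and CCND2 from 55.1 and 64.5 to 186 and 182 (1.61 ± 0.17), while CCND1 was slightly lower (-0.094 ± 0.03; -0.08 and not called without adherent replicate 1). The inhibitor CDKN1A went from 755 and 748 through 3899 and 4228 at 16 h to 1579 and 1727 (1.13 ± 0.05), RBL2, a pocket protein of resting cells, rose (0.64 ± 0.14) and RBL1, its relative in cycling cells, fell (-0.71 ± 0.15).

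Of the BCL2 family and death receptors 7 of 21 rose and 8 fell, and of TNF ligands 2 and 3 of 6 (first list median -0.067, trend-free -0.017, second list median -0.19, trend-free -0.16). All tested genes gave 26.3% rises and 28.9% falls. MCL1, an anti-death member of the BCL2 family with a short-lived protein, went from 2162 and 2133 normalized counts to 9887 and 9948 (2.21 ± 0.03). BCL2 went from 142 and 114 to 31.1 and 50.8 (-1.66 ± 0.31), and BCL2L1 changed little (0.17 ± 0.03). Pro-death members that fell were BAX (-1.01 ± 0.10), BMF, linked to death on detachment (-1.66 ± 0.27), and PMAIP1 (-0.56 ± 0.09), whereas BCL2L11, the other sensor of detachment, was not called (-0.35). BBC3 (-0.72 ± 0.26), BAD and BOK fell in the fit of all libraries, but BBC3 was not called without adherent replicate 2 (-0.62) or 5 d replicate 2 (-0.49), BAD not without 5 d replicate 1 (-0.26) and BOK not without adherent replicate 1 (-0.38) or 5 d replicate 2 (-0.38). Of the decoy receptors for TRAIL, TNFRSF10D rose (1.11 ± 0.06). The ligand itself, TNFSF10, fell (-0.55 ± 0.23), but not by edgeR (-0.54) nor without adherent replicate 1 (-0.57) or 2 (-0.54) or 5 d replicate 2 (-0.50). BIRC3, which blocks caspase-8 activation downstream of TNF receptors, went from 133 and 136 to 1522 and 1413 (3.44 ± 0.08).

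Several YAP and TAZ targets were lower although the genes of both co-activators were higher. WWTR1, the gene of TAZ, went from 691 and 644 to 1680.1 and 1733 normalized counts (1.35 ± 0.06) and YAP1 from 1622 and 1617 to 2310.5 and 2399 (0.54 ± 0.04). ANKRD1, a sensitive target, went from 12029.8 and 11932 to 2194 and 2069 (-2.49 ± 0.04), CYR61 from 11443 and 11234 to 3049.6 and 2938 (-1.92 ± 0.04), CTGF from 3014 and 2880.3 to 1524 and 1326 (-1.05 ± 0.05) and AXL from 8898 and 8989 to 2872 and 2890.1 (-1.63 ± 0.03). AMOTL2 (-1.73 ± 0.11), CRIM1 (-1.39 ± 0.05), AJUBA (-1.29 ± 0.06) and the DNA-binding partner TEAD4 (-1.27 ± 0.19) fell too, and PTPN14 rose (1.06 ± 0.05). Of 24 genes 15 fell and 6 rose (median -0.28, trend-free -0.37). The list pools the co-activators and their partners with targets, so its count and median do not describe targets alone. ANKRD1 was lowest at 16 h (767 and 730.4) and had risen by 5 d (1.51 ± 0.04).

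Actomyosin genes were split, 17 up and 14 down of 34 (list median 0.16, trend-free 0.17). FHL2 (-1.44 ± 0.10), FILIP1L (-1.01 ± 0.17), LIMA1 (-0.82 ± 0.07) and TAGLN2 (-0.78 ± 0.04) fell, while the linkers VCL (0.62 ± 0.04) and TLN1 (0.50 ± 0.03) rose. The change of ACTB (0.046 ± 0.01) turned to -0.28 with quantile normalization and to -0.006 with scaling by library total, and was not called without adherent replicate 1 (0.041).

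Most genes of matrix receptors and of the matrix rose. FN1, fibronectin, went from 3293 and 3506 in adherent cells through 124258 and 123535 at 16 h to 28988 and 29895 at 5 d. ITGA5, the chain that binds it, went from 1415 and 1354 to 7649.9 and 7939 (2.49 ± 0.03). The collagen receptor chain ITGA10 rose by 2.38 ± 0.11, and the laminin receptor chains ITGA6 (1.19 ± 0.04) and ITGB4 (1.52 ± 0.05) rose together. Exceptions were ITGB2, the leukocyte chain (-1.37 ± 0.09), ITGA3 (-0.33 ± 0.02) and the matrix protein TNC (-0.67 ± 0.09), which fell. Of 17 genes 11 rose and 3 fell (median 0.71, trend-free 0.59). Among collagen and laminin chains 17 of 26 rose, 10 at least 2-fold, and 3 fell (median 0.68, trend-free 0.64). COL6A3 went from 46.8 and 58.4 to 869 and 867 (4.03 ± 0.10), COL5A1 from 195 and 212 to 1013 and 1108 (2.37 ± 0.08) and COL4A5, of basement membranes, from 15.1 and 24.4 to 128 and 117 (2.61 ± 0.27). LAMB1 (1.48 ± 0.12), LAMA3 (1.46 ± 0.08) and LAMA5 (1.16 ± 0.04) rose and LAMA1 fell from 115 and 122 to 24.8 and 24.6 (-2.21 ± 0.35). COL8A1 and COL12A1 also fell.

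Proteases showed no common direction, 7 up and 8 down of 19 (list median 0.021, trend-free 0.03). PLAU, the urokinase gene, went from 672 and 651 to 235 and 200.3 (-1.6 ± 0.12). MMP14, a membrane-bound collagenase, rose (0.96 ± 0.02). MMP1, a secreted one, was at 1198 and 1144 in adherent cells, 2835 and 2865 at 16 h and 508 and 454 at 5 d (-1.28 ± 0.06). ADAMTS1 fell (-2.16 ± 0.11). TIMP1 rose (0.97 ± 0.03), in contrast to TIMP2 and TIMP3.

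Of EMT factors and cadherins 5 of 11 rose and 4 fell (list median 0.10, trend-free 0.20). The median turned to -0.14 with quantile normalization and to -0.27 without adherent replicate 2, so it has no stable sign. The repressors SNAI2 (1.1 ± 0.06), ZEB1 (0.76 ± 0.07) and SNAI1 (1.3 ± 0.51) rose, and of cadherins CDH3 (-1.04 ± 0.29), CDH4 (-1.4 ± 0.10) and CDH11 (-0.30 ± 0.04) fell. SNAI1 was not called without adherent replicate 2 (1.09) or 5 d replicate 2 (0.61). The neural cadherin CDH2 fell (-2.46 ± 0.77) but was not called without adherent replicate 1 (-2.24) or 2 (-2.68) or 5 d replicate 2 (-1.53), and was at -3.4 without 5 d replicate 1. VIM was nearly level (0.10 ± 0.01), and quantile normalization turned it to -0.14. Among junction and keratin genes 14 of 24 rose and 6 fell (median 0.45, trend-free 0.37). KRT19, a luminal keratin, went from 3641 and 3584 to 7404 and 7492 (1.04 ± 0.03), CLDN7 from 152 and 141 to 346 and 313 (1.16 ± 0.12) and the desmosomal PKP2 from 407 and 446 to 962 and 984 (1.19 ± 0.07). CLDN1 went from 68.7 and 69.4 to 3.11 and 3.08 (-4.1 ± 0.53) and OCLN, of tight junctions, from 222 and 212 to 119 and 86.3 (-1.09 ± 0.22). Of the 6 mucin and luminal secretory genes tested 5 rose and 1 fell (list median 2.96, trend-free 3.12). MUC5B, a gel-forming mucin, went from 6.79 and 12.8 to 396 and 359, MUC1 from 43 and 43.8 to 236 and 223 (2.38 ± 0.16) and the secretory AGR2 from 321 and 343 to 846 and 813, while the epithelial factor ELF3 fell (-3.11 ± 0.81). ELF3 was not called without adherent replicate 2 (-2.79) or 5 d replicate 2 (-1.59), and was at -4.63 without 5 d replicate 1.

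**Figure D5:**
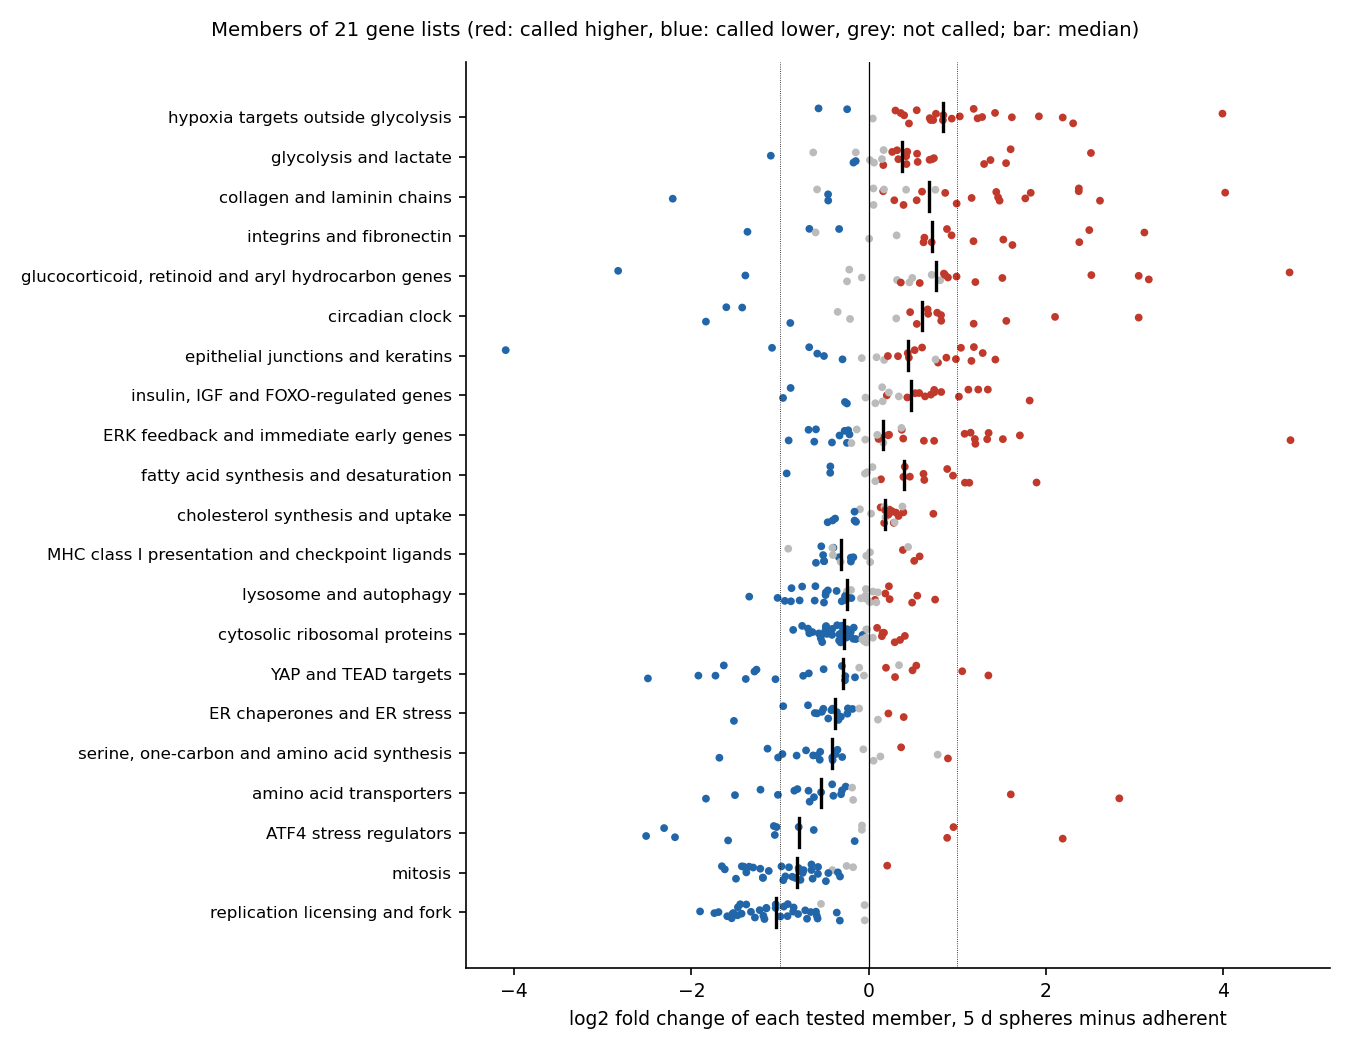
Log2 fold change of each tested member (x axis) of 21 gene lists (rows). Red points were called higher at 5 d, blue lower and grey neither, and black bars are medians. The medians run from 0.84 for hypoxia targets outside glycolysis to -1.05 for replication, with dotted lines at 2-fold.

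Genes that answer to steroid hormones and related receptors mostly rose. FKBP5, a chaperone partner of the glucocorticoid receptor and a classic target of it, went from 305 and 337 normalized counts to 8664 and 8692 (4.75 ± 0.04). TSC22D3, also called GILZ, went from 262 and 226 to 2214 and 2163 (3.16 ± 0.06), PER1 from 69.4 and 53.6 to 541 and 485 (3.05 ± 0.12) and KLF9 from 280.0 and 234 to 718 and 746 (1.51 ± 0.09). The receptor gene NR3C1 was not called (-0.076). Another target, SGK1, went the other way, from 258 and 299.5 to 105 and 106 (-1.39 ± 0.15). TGM2, a transglutaminase switched on by retinoids, went from 1358 and 1301 to 7494 and 7719.9 (2.52 ± 0.03). CYP1A1, the classic target of the aryl hydrocarbon receptor, fell from 61.1 and 46.9 to 7.25 and 6.16 (-2.83 ± 0.56), although the receptor AHR (0.86 ± 0.08) and other targets, TIPARP (0.99 ± 0.08) and CYP1B1 (0.85 ± 0.19), rose. Of 22 genes 12 rose and 2 fell (median 0.76, trend-free 0.74). Sphere medium held B27 and adherent medium held serum, and the part of either in these changes was not tested.

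Clock genes gave 11 rises and 4 falls of 18 (list median 0.61, trend-free 0.67). The activators ARNTL (0.82 ± 0.18), CLOCK (0.47 ± 0.09) and NPAS2 (0.82 ± 0.05) rose, CLOCK without a call once length and GC trends were removed (0.026), and RORA, which turns ARNTL on, went from 48.3 and 52.4 to 150.1 and 149 (1.56 ± 0.16). CRY1, a repressor, fell from 388 and 379 to 125 and 90.9 (-1.84 ± 0.15), as did the output factor DBP (-1.61 ± 0.24), PER3 (-1.43 ± 0.27) and NR1D2 (-0.88 ± 0.08). Each group is 1 time point, so phase cannot be read from these levels.

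Of the EGF receptor family and its ligands 4 of 12 rose and 2 fell (list median 0.12, trend-free 0.083). AREG, a ligand of the EGF receptor, went from 35.5 and 26.2 through 854 and 851 at 16 h to 196 and 237 normalized counts at 5 d (2.78 ± 0.16), EREG from 27.2 and 25.6 to 68.3 and 95.5 (1.58 ± 0.26) and TGFA from 212 and 262 to 404 and 438 (0.83 ± 0.11). HBEGF (-0.72 ± 0.16) and the receptor EGFR (-0.58 ± 0.04) fell. ERRFI1, a feedback inhibitor of that receptor, went from 6505 and 6898 to 23305 and 24281 (1.83 ± 0.02). ERK feedback genes rose in the same libraries, with SPRY4 (1.52 ± 0.04), DUSP6 (1.15 ± 0.03), DUSP1 (1.21 ± 0.06) and SPRED1 (1.08 ± 0.09), whereas FOSL1 (-0.90 ± 0.04), IER2 (-0.68 ± 0.06), EPHA2 (-0.61 ± 0.04) and SPRY2 (-0.41 ± 0.06) fell. KLF10 rose by 1.71 ± 0.11. EGR3 had 1 read in adherent cells and 27.9 and 40.1 normalized counts at 5 d, 112 times the adherent level (interval 20.1 to 4412). The list gave 17 rises and 10 falls of 33 (list median 0.17, trend-free 0.38).

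Insulin and FOXO genes gave 14 rises and 4 falls of 24 (median 0.48, trend-free 0.39). IRS2, an insulin receptor substrate, went from 235 and 226 to 638 and 544 (1.35 ± 0.09) and SESN3, a leucine-sensing brake on mTORC1, from 43.8 and 48.1 to 166 and 163 (1.82 ± 0.23). TRIB2 (1.24 ± 0.07), PIK3R3 (1.02 ± 0.17) and IGFBP4 (1.13 ± 0.02) rose, and IGFBP7 (-0.88 ± 0.04) and KLF15 (-0.97 ± 0.24) fell.

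In TGF-beta and BMP signalling the receptor TGFBR2 went from 1883 and 1956 to 5155 and 5059 (1.41 ± 0.04), and the co-receptor TGFBR3 from 373 and 346 to 111 and 94 (-1.81 ± 0.16). The latent binding proteins LTBP1 (1.97 ± 0.04) and LTBP2 (1.02 ± 0.12) rose. BMP4 fell (-1.4 ± 0.09) and BMP2 rose (1.23 ± 0.20). ID1, a BMP-driven inhibitor of differentiation factors, went from 23.4 and 40.2 to 366 and 388 (3.58 ± 0.19), and the decoy receptor BAMBI fell (-1.21 ± 0.21). The list gave 13 rises and 7 falls of 27 (list median 0.24, trend-free 0.094).

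Of NOTCH and WNT genes 8 rose and 7 fell of 26 (list median 0.068, trend-free -0.018), where 26.3% of all tested genes rose and 28.9% fell. DKK1, a secreted WNT antagonist, went from 4909 and 4824 to 862 and 813 (-2.54 ± 0.05), and the receptor FZD2 fell (-1.45 ± 0.12). LGR5, a WNT co-receptor known from stem cells, went from 46.8 and 53 to 1 read over both 5 d libraries, an adherent level 64.8 times that of 5 d (interval 11.6 to 2557). JAG1, a NOTCH ligand, went from 470.1 and 499 to 1552 and 1596 (1.7 ± 0.06), while the targets HES1 and HEY1 were not called (0.32 and 0.15). WNT5A (2.0 ± 0.43), TCF7L2 (1.16 ± 0.11) and LRP6 (0.75 ± 0.08) rose and DLL4 (-2.49 ± 0.46) and WNT5B (-1.05 ± 0.19) fell.

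Markers used for tumour-initiating cells did not move together: 6 of 16 rose and 6 fell (list median -0.091, trend-free 0.0089). ITGA6, NES (0.97 ± 0.19), SOX4 (0.63 ± 0.10), KLF4 (0.39 ± 0.08) and ID1 rose with SCIRT. SCIRT, the RNA silenced elsewhere in the series, was placed in this list and is counted among the 6 rises. The chemokine receptor CXCR4 went from 804 and 852 to 283 and 273 (-1.57 ± 0.09) and BMI1, a Polycomb protein, from 504 and 484 to 236 and 268 (-0.97 ± 0.10). CD44 and MYC fell slightly (-0.11 ± 0.03 and -0.23 ± 0.04), CD44 without a call when 5 d replicate 1 was left out (-0.056) and MYC with length and GC trends removed (-0.035), and SOX9 was not called (0.06). ABCG2, the drug exporter, was at 103 and 107 in adherent cells, 3.2 and 3.66 at 16 h and 55.9 and 69.3 at 5 d (-0.74, not called against adherent cells). Under 6 alternatives, edgeR among them (-0.75), ABCG2 was called lower. SOX2 was below the filter.

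NF-kappaB subunits and feedback genes gave 7 rises and 8 falls of 19, and chemokine and cytokine ligands 7 and 6 of 19 (first list median -0.12, trend-free 0.078, second list median -0.045, trend-free 0.095). The shares over all tested genes were 26.3% rises and 28.9% falls. BIRC3 and TNIP1 (0.97 ± 0.03) rose, NFKBIA (0.91 ± 0.05) and TNFAIP3 (0.93 ± 0.15), feedback inhibitors of NF-kappaB, rose moderately, and RELB (-0.72 ± 0.14), NFKBIB (-1.05 ± 0.16) and SOD2 (-0.48 ± 0.05) fell. IL6 went from 17.4 and 21.3 to 80.7 and 83.2 normalized counts (2.04 ± 0.27), while its relative IL11 went from 329.8 and 282 to 64.2 and 30.8 (-2.75 ± 0.25). The chemokines CXCL1 (1.62 ± 0.21), CXCL3 (2.15 ± 0.35) and IL8 (0.80 ± 0.11) rose, and CCL26 (-2.6 ± 0.35), IL24 (-2.14 ± 0.21) and CSF2 (-1.83 ± 0.45) fell, CSF2 without a call when 5 d replicate 2 was left out (-0.77) and at -2.89 without 5 d replicate 1. LBP, which carries lipopolysaccharide, was at 1.51 and 0.609 in adherent cells, 845 and 871 at 16 h and 6.21 and 9.24 at 5 d. It passed the filter only through its 16 h level. Of 17 complement and acute-phase genes 8 rose and 2 fell, with CD55 (-0.99 ± 0.04) and PTX3 (-0.92 ± 0.07) among the falls (list median 0.69, trend-free 0.78).

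Interferon-stimulated genes gave 9 rises and 4 falls of 25 (median 0.24, trend-free 0.33). PARP9 (1.36 ± 0.20), DDX60 (1.27 ± 0.23), OAS2 (1.23 ± 0.10) and SAMD9 (1.23 ± 0.12) rose, and IFIT2 and MX1 were not called (-0.12 and -0.58). In MHC class I presentation 10 of 21 fell and 3 rose, none 2-fold (median -0.31, trend-free -0.15). HLA-E was at 5363 and 5218 in adherent cells, 7962 and 8113 at 16 h and 3462 and 3549.5 at 5 d (-0.59 ± 0.03). The checkpoint ligand CD274, PD-L1, was not called (-0.31). Reads of HLA genes can be hard to assign because of their likeness and variation.

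Ribosomal protein genes fell in 34 of 48 and rose in 7, none 2-fold (median -0.28, trend-free -0.15). RPS12 was among those that fell (-0.75 ± 0.03), and RPL38 (0.41 ± 0.03) and RPS25 (0.36 ± 0.03) rose most. They are short transcripts, the class in which falls outnumbered rises. Ribosome biogenesis fell in 17 of 31 with 5 rises (median -0.22, trend-free -0.21), including FBL, the methylase of ribosomal RNA (-0.72 ± 0.05), RRP9 (-0.93 ± 0.14) and BYSL (-0.69 ± 0.08), while NAT10 (0.44 ± 0.07) and POLR1A (0.29 ± 0.07) rose. POLR1A turned to -0.17 with length and GC trends removed. Proteasome subunits gave 8 rises and 12 falls of 30 (median -0.10, trend-free 0.018).

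Lysosome and autophagy genes fell in 19 of 38 and rose in 7 (median -0.25, trend-free -0.16). The calcium channel MCOLN1 (-1.35 ± 0.11), the cholesterol carrier NPC2 (-0.95 ± 0.04) and the pump subunit ATP6V0D1 (-0.88 ± 0.07) fell with SQSTM1, and the protease CTSL (0.75 ± 0.04) and the receptor CALCOCO2 (0.55 ± 0.05) rose. Among S100 proteins and annexins 13 of 18 rose and 4 fell (list median 0.44, trend-free 0.47). S100A10 went from 2778 and 2790.2 to 5649 and 5820.3 (1.04 ± 0.03), together with its partner ANXA2 (0.53 ± 0.02), and ANXA3 fell from 3223 and 3241 to 1115 and 1138 (-1.52 ± 0.05). S100A6 (0.39 ± 0.01) turned to -0.024 with quantile normalization.

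The genes silenced elsewhere in the series were measured here as well. SCIRT (RP5-1120P11.1), a long noncoding RNA annotated as antisense, whose reads cannot be told from those of a gene on the opposite strand, stood at 3.77 and 3.04 normalized counts before and 62.1 and 73.9 after 5 d as spheres. EZH2, the methyltransferase of the Polycomb complex PRC2, stood at 518 and 490.1 and 349.9 and 317. Of its partners EED rose (0.32 ± 0.14; not called without adherent replicate 1, 0.31, or 2, 0.34, or 5 d replicate 2, 0.20), SUZ12 was not called (0.12), the accessory JARID2 rose (0.54 ± 0.07) and PHF19 fell from 613 and 689 to 271 and 248 (-1.32 ± 0.11). In a list of PRC2 subunits and genes known to be repressed by the complex in breast lines, 11 of 21 fell and 3 rose (list median -0.23, trend-free -0.24). Among all tested genes 28.9% fell and 26.3% rose. The list pools the complex with its targets, so no direction for either can be read from that count or median.

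Genes changed at 5 d were then read in the siRNA libraries, which came from transfected cells kept 48 h in sphere medium and did not enter the comparison. With siSCIRT against siNC (n = 6 against 3, both siRNAs averaged), 7.86% of the 12683 genes tested in both tables were called higher and 9.4% lower. Of 948 genes at least 2-fold higher at 5 d, 14.8% were called higher and 4.75% lower. Of 847 genes at least 2-fold lower at 5 d, 5.19% were called higher and 21.7% lower. With siEZH2 against siNC (n = 2 each), 4.59% of 12701 genes were called higher and 2.8% lower. Of 947 genes at least 2-fold higher at 5 d, 2.75% were called higher and 8.45% lower, and of 837 genes at least 2-fold lower, 15.1% were called higher and 2.15% lower. The larger shares lay on the side of the 5 d change with siSCIRT and on the opposite side with siEZH2. These are counts, the tables were normalized separately, and the difference between the siRNAs was not tested. The columns of one of the SCIRT siRNAs were assigned to that group by inference from their names. The mean over both siRNAs does not depend on this, but the error estimate, and so the calls, do.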

How the data were processed

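Total RNA was made into TruSeq RNA v2 libraries, per the labels' protocols. That kit does not mark the strand. CASAVA 1.4, TopHat2, Partek and the build hg19 appear, without their roles, in the submitters' processing notes. The authors deposited log2 values for the culture and siSCIRT libraries, whose spacing fits a variance-stabilising transformation of counts, and normalized counts (signal) for the siEZH2 libraries. Inverting the transformation gave normalized counts, and dividing by the step of each library gave whole reads for 100% of values (tolerance 0.05). Because the values are normalized, no count model was the main test.

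limma 3.58.1 (R 4.3.3; eBayes with trend and robust settings) was run on log2(normalized count + 1) for all 6 culture libraries and genes with a mean of at least 10, with Benjamini-Hochberg adjustment over all tested genes and a threshold of 0.05. Fold changes are on that scale, which understates the change of low genes, and each ± is a standard error with n = 2 per group. Lower bounds put a group without reads at 3 reads per library. Ratios resting on 1 to 3 reads carry exact Poisson 95% intervals that cover counting error only. Named genes were the 25 largest rises and falls among called, non-overlapping genes with a mean of at least 100 in a group, the 15 largest gains and losses in normalized counts, genes without reads in one group, and list members. The members and lists were chosen with earlier results of these data known. "Trend-free" medians come from a fit with the trends on length and GC content removed (GENCODE v29 transcripts, 98.8% of coding genes matched), chosen after seeing the data. Other alternatives were edgeR 4.0.16 and DESeq2 1.42.0 on the recovered reads, other scalings, filters, pseudocounts and left-out libraries. Same-numbered libraries did not deviate together in the culture table (correlations 0.0185, -0.00894 and 0.0049). The correlations were 0.0208 to 0.299 with siSCIRT, all positive though not every pair passed 0.1, and -0.0854 with siEZH2. The main siRNA fits treated neither as paired. A replicate block raised the siSCIRT calls from 7.86% higher and 9.4% lower to 14.1% and 15.1% of genes. On simulated counts the scripts were tested before use. Promoters came from RefSeq (GRCh38.p14). Some genes are not reported here.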

Additional observations from a re-analysis of the deposited data

Results flagged for a closer look

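Of the genes named above, 8 were called in opposite directions at 16 h and at 5 d against adherent cells, each by at least 0.5 on the log2 scale, and limma also called the change between the sphere times. Both contrasts share the adherent libraries. From 16 h to 5 d ACSS2 rose by 1.6 log2 units. The other genes were lower at 5 d than at 16 h, with log2 differences of -3.95 for CCL26, -1.76 for DNAJB9, -1.20 for HLA-E, -2.57 for MMP1, -5.53 for MT1G, -1.08 for TMEM45A and -1.82 for TNFSF10. The value of MT1G rests on 3 reads at 5 d and is no bound. The fall of TNFSF10 against adherent cells was not called by edgeR or in several fits that left out a library. The check for a library far from the others takes at least 4 libraries in a group and was not run. Between the libraries of a group, 446 genes differed over 2-fold at 5 d and 344 in each of the other groups.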

How the results depend on the processing

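The counts of genes called higher and lower stayed within 1.5 times under every alternative run. Leaving out one library in turn gave 2999 to 3327 genes higher and 3152 to 3729 lower, with 955 to 1053 at least 2-fold higher and 848 to 1063 lower. A group then left with 1 library is assumed to vary like the others. The numbers do not pair the libraries: the replicate block gave 3658 higher and 4029 lower, with 1063 and 969 at least 2-fold. A mean of at least 50, which tests fewer genes, gave 684 and 621. Fold counts were not run on the deposited log2 values, which are not folds.

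Of 359 genes named and called, 327 were called in the same direction under every alternative run for them. All alternatives were run for 334, of which 307 kept the call. Signs turned with quantile normalization for ACTB (-0.276), MT-ATP6 (-0.063), MT-CO3 (-0.000), S100A6 (-0.024), VIM (-0.135) and the median of EMT factors and cadherins (-0.135), with library totals for ACTB (-0.006), and with length and GC trends removed for ATF4 (0.089), FDPS (0.079), MKI67 (-0.269) and POLR1A (-0.167). Leaving out one library in turn, that median ran from -0.266 without adherent replicate 2 to 0.114. The cause was not tested.

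With siSCIRT, genes at least 4-fold higher at 5 d were called higher in 20.9% and lower in 6.41%, and genes at least 4-fold lower were called higher in 4.9% and lower in 14.7%. The replicate block gave 23.7% and 7.59% of the 2-fold higher and 9.33% and 27.3% of the 2-fold lower genes, against 14.1% and 15.1% of all genes with the block. With siEZH2, 15.7% of 4-fold higher genes were called lower and 3.06% higher, and 6.82% of 4-fold lower genes were called higher and 3.03% lower, the last close to the 2.8% of all genes. The replicate block gave 1.37% and 4.01% of the 2-fold higher, and 10% and 0.956% of the 2-fold lower genes, against 2.52% and 1.41% of all genes. Depths of 6104222 to 14781941 reads limit genes under about 100 normalized counts, of which 34.9% with a mean of 10 to 100 were called.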
